A study of Mus musculus with 24 samples.

Results

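The miR-290 to miR-295 cluster is a run of microRNA (miRNA) hairpins on mouse chromosome 7 that embryonic stem cells make from 1 long transcript. Its members here are the 11 assays, of 584 miRNA assays on the cards, whose name is mmu-miR-290, mmu-miR-291a, mmu-miR-291b, mmu-miR-292, mmu-miR-293, mmu-miR-294 or mmu-miR-295, with or without an arm (-3p or -5p). Assays of opposite strands, whose names end in an asterisk, were not members. The rule used names and no measured value, but earlier results of these data were known when the members were chosen. Of the 11, 7 lay on card A in 1 well each, and 4 (miR-290-5p, miR-291a-5p, miR-291b-3p and miR-292-5p) on card B in a pair of wells each.

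Total RNA of 4 groups of mouse cells was measured by quantitative PCR on TaqMan low density arrays, with 3 replicates a group and no treatment in any group. CT-BM was primary bone marrow washed out of femurs and tibias. The growth text given for it describes a suspension culture and the series title speaks of stem cells, so the state of these cells is not settled, and the strain and age of the mice are not given in the sources used here. L-1210 is a lymphocytic leukaemia line and M1 a myeloid leukaemia line, both in suspension, and PYS is a teratocarcinoma line that grows attached with an epithelial-like form. The lines were taken at passage 3, and each group is 1 line or 1 primary source. Nothing in the labels ties the replicates to separate cultures or animals. Where an assay gave signal, the p-values therefore reflect the spread among the 3 measurements of a group, and that spread may be technical.

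In each hairpin the -5p and -3p arms can both become mature miRNAs. Bases 2 to 8 of a mature miRNA, the seed, pair with target messenger RNAs, so miRNAs with 1 seed can share targets. The cluster is known as the main miRNA product of mouse embryonic stem cells, where members with the AAGUGC core in the seed promote passage into S phase, in part through inhibitors of the cell cycle such as Cdkn1a, Rbl2 and Lats2. It is switched off as these cells differentiate, when let-7 miRNAs accumulate. The miR-17 family and members of the cluster of miR-302 and miR-367 carry the same core and lie elsewhere in the genome.

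The mature sequences are shown because the seeds sort the members into families that the values can be set beside. RefSeq's table for GRCm38.p6 held a mature sequence for 10 of the 11 members, and miR-292-3p is given by name only. The 10 lie on the plus strand of chromosome 7 within 2199 bases (chr7:3218639-3220837), in 7 annotated hairpin genes, 2 of which are overlapped by a hairpin gene of the opposite strand (Mir290b and Mir292b). RefSeq's extent of Nlrp12, a protein-coding gene of the minus strand, also reaches over them, and exons or introns were not assigned. The assay names without an arm (miR-293, miR-294 and miR-295) were read as the -3p arm, as in older naming. Each sequence runs 5′ to 3′, with the seed in capitals. First come the members with AAGUGC in bases 1 to 8.
miR-290-3p: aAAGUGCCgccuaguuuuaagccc
miR-291a-3p: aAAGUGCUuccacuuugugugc
miR-291b-3p: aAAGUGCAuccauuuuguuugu
miR-294: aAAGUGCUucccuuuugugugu
miR-295: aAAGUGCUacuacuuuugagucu

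Next come miR-293 and the 5′ arms, whose seeds lack that core.
miR-293: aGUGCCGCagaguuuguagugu
miR-290-5p: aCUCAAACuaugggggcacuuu
miR-292-5p: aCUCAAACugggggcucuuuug
miR-291a-5p: cAUCAAAGuggaggcccucucu
miR-291b-5p: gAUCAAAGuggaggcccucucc

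The AAGUGC core (searched on the RNA as written) stood in bases 1 to 8 of 5 of the 10 members with a sequence and of 18 of 1679 mature mouse miRNAs in the table (1.07%). The full seed AAGUGCU was shared by miR-291a-3p, miR-294 and miR-295, and in the table also by miR-302b and miR-302d (5 of 1679, 0.298%). miR-290-5p and miR-292-5p shared the seed CUCAAAC, and miR-291a-5p and miR-291b-5p the seed AUCAAAG. Beyond the seed some members are near copies. miR-291a-5p and miR-291b-5p were identical at 20 of 22 positions from the 5′ end, and miR-294 was identical to miR-291a-3p and to miR-291b-3p at 19 of 22. How well the assays tell such pairs apart was not tested.

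For comparison, 2 miRNAs of the cluster of miR-302 and miR-367 and 1 of the miR-17 family are shown. In miR-17 the core is set 1 base further on, so its seed is AAAGUGC.
miR-302b: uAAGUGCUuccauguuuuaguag
miR-302d: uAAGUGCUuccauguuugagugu
miR-17: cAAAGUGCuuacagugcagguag

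A well gives the threshold cycle (Ct), the PCR cycle at which signal appears, which is 1 lower for each doubling of template if the reaction doubles fully. Wells with no signal or a Ct over 35 counted as not detected. Levels, on a log2 scale, are the negative delta Ct: the mean Ct of 3 control RNAs of that card run (snoRNA135, snoRNA202 and MammU6) minus the Ct of the assay. Assays differ in unknown efficiency, so levels are compared between groups within an assay and never between assays. A difference from a group without a detected replicate is a bound at the Ct limit, written as "at least". In such a group every value is set to the limit, and only the control mean varies. The SE and p-value of a bound therefore do not measure the spread of the assay in that group. The fit pools an assay's spread over the 4 groups. Such a group therefore also enters the SE of measured differences, as for miR-294 in PYS against CT-BM. The control mean on card A was earliest in M1, at Ct 12.5, followed by L-1210 at 13.8, PYS at 13.9 and CT-BM at 14.8. The limit on card A therefore lay at a negative delta Ct of -22.55 in M1, -21.19 in L-1210, -21.13 in PYS and -20.19 in CT-BM. On card B it lay at -22.66 in M1, -22.36 in L-1210, -22.08 in PYS and -20.83 in CT-BM. Bounds on a card differ between groups by that much.

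Members were detected in PYS and, with few exceptions, nowhere else. In every PYS replicate 10 of the 11 members were detected, against 53.4% of all assays (312 of 584). In the other 3 groups 0 to 2 members were detected per replicate. Of the 11, 7 members were detected in every PYS replicate and in none of the other 9 replicates, a pattern that 37 of 584 assays (6.34%) had. These were miR-290-5p, miR-290-3p, miR-291a-3p, miR-291b-5p, miR-291b-3p, miR-292-5p and miR-293. For miR-291a-3p the well of L-1210 replicate 3 was absent, and absent wells counted here as not detected. The share of all assays detected in a replicate ran from 44.3% to 54.2%, so the groups differed far less in the number of assays detected overall. Fewer cells with a miRNA and less of it per cell cannot be told apart in such bulk RNA.

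**Figure D1:**
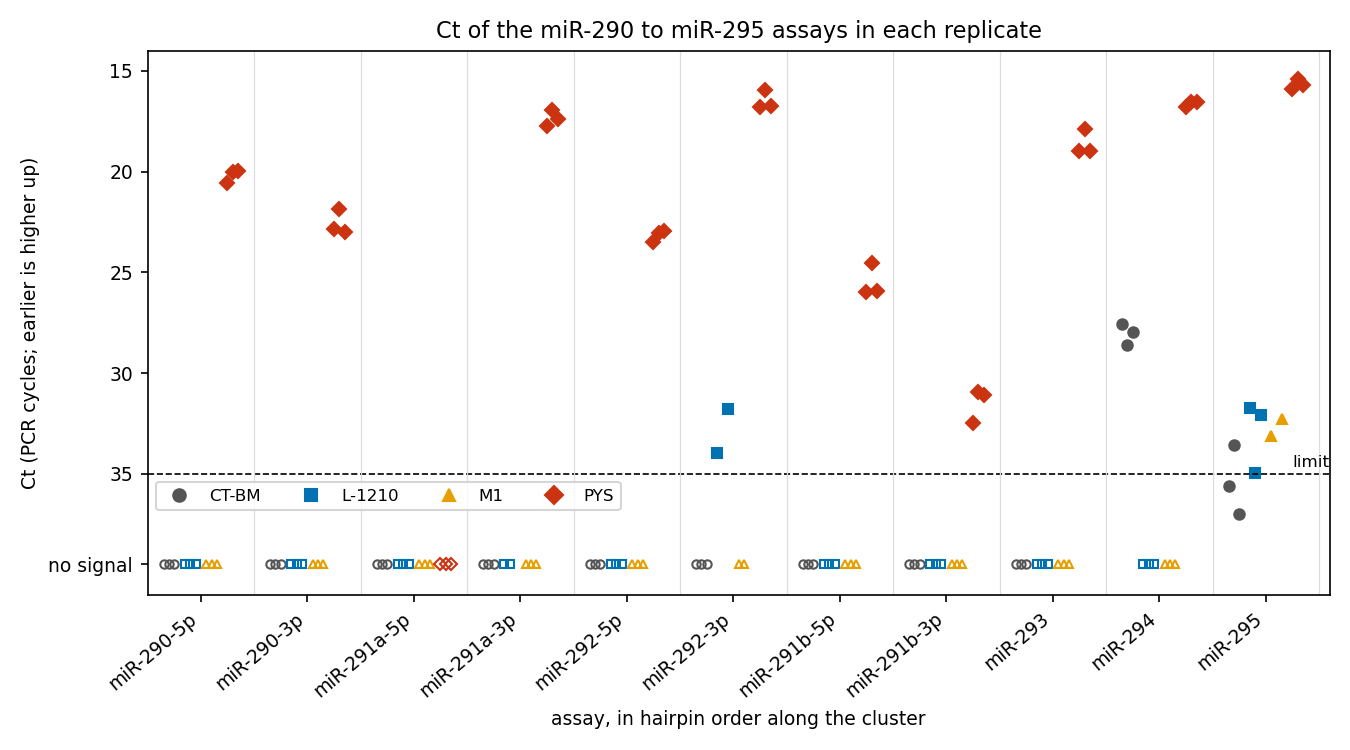
Ct (PCR cycles, axis turned so that more template is higher) of the 11 members in each replicate of the 4 groups, in hairpin order along the cluster. Filled points amplified, open points gave no signal, absent wells are not drawn, and the dashed line is the limit of 35; PYS stands alone in 7 members, and CT-BM shows miR-294 at 27.5 to 28.6.

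Among the AAGUGC members, miR-295 had PYS Ct values of 15.9, 15.4 and 15.7 in replicates 1, 2 and 3. For miR-294 they were 16.8, 16.5 and 16.5. For miR-291a-3p they were 17.7, 17.0 and 17.4. These 3 assays carry the seed AAGUGCU printed above, and in each the 3 PYS replicates lay close together, apart from every value of the other groups. The values of miR-290-3p were 22.9, 21.9 and 23.0, with no signal in any other group. miR-291b-3p was the member nearest the limit, at 32.5, 30.9 and 31.1. Its paired wells on the card differed more than those of the other members with repeat wells, with an SD between wells of up to 0.67 cycles against at most 0.10 for miR-290-5p and miR-292-5p.

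miR-292-3p, named here without its sequence, gave PYS Ct values of 16.8, 15.9 and 16.7. miR-293, whose seed GUGCCGC no other mature miRNA in the table had, gave 19.0, 17.9 and 19.0. Replicate 2 had the earliest Ct in both, and all PYS values preceded those of any other group. Of the 5′ arms with the seed CUCAAAC, miR-290-5p gave 20.6, 20.0 and 20.0 and miR-292-5p 23.5, 23.0 and 23.0. miR-291b-5p gave 26.0, 24.5 and 25.9. None of these arms, nor miR-293, gave a signal outside PYS.

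miR-291a-5p gave no signal in any well of any group, and 204 of 584 assays (34.9%) were likewise detected in no replicate. It comes from the hairpin whose 3′ arm, miR-291a-3p, was at 17.0 to 17.7 in PYS, and it is identical at 20 of 22 positions to miR-291b-5p, which was detected in PYS. No group gave a value that would show whether this assay works on these cards. The opposite strands gave the same split: miR-294*, the 5′ arm of the miR-294 hairpin, was at 21.4, 20.9 and 20.9 in PYS with no signal elsewhere, and miR-293* gave no signal in any group, with its PYS replicate 3 well absent.

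Between replicates of PYS the members varied about as other assays did. The SD of the negative delta Ct ran from 0.04 to 0.54 over the 10 detected members (n = 3 each), with a median of 0.31, and the median over the 312 assays detected in every PYS replicate was 0.27. The smallest SDs belonged to the card B members miR-290-5p and miR-292-5p and the largest to miR-291b-3p.

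The comparison of PYS with bone marrow asks how the teratocarcinoma line differs from primary marrow cells. All 10 tested members were called higher in PYS than in CT-BM by limma (Benjamini-Hochberg adjusted p under 0.05 over all assays tested and at least 2-fold), where 39.8% of the 362 assays tested were called higher and 38.7% lower (78.5% in either direction). Since 9 of the 10 entered the test only through their detection in PYS, their count is a description and no support. The largest fitted difference was that of miR-295, with a log2 difference of 17.92 ± 0.65 (SE). In CT-BM its Ct was 35.6, 33.6 and 37.0, so it was detected in 1 of 3 replicates and the fold of 247793 rests in part on the limit.

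The other differences from CT-BM are bounds, except that of miR-294. miR-292-3p was at least 195266-fold higher in PYS, miR-291a-3p at least 106685-fold and miR-293 at least 44505-fold. Such folds assume full doubling in every PCR cycle, so the Ct values above are the safer description. miR-290-5p was at least 12146-fold higher, miR-290-3p at least 2863-fold, miR-292-5p at least 1539-fold and miR-291b-5p at least 382-fold. miR-291b-3p, near the limit in PYS itself, allowed a bound of 4.80-fold (log2 2.26 ± 0.34, adjusted p = 3.5e-05).

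miR-294 was the single member detected in every CT-BM replicate. Its Ct there was 27.5, 28.6 and 28.0, against 16.8, 16.5 and 16.5 in PYS, and L-1210 and M1 gave no signal in 3 of 3 replicates each. The groups do not overlap, and PYS was 1419-fold above CT-BM (log2 10.47 ± 0.30 SE, n = 3 and 3, adjusted p = 1.45e-12). Of the 8 lower bounds in the same comparison, those of miR-290-3p (11.48), miR-290-5p (13.57), miR-293 (15.44), miR-291a-3p (16.70) and miR-292-3p (17.58) lie above this measured difference. That of miR-292-5p (10.59) is level with it, and those of miR-291b-5p (8.58) and miR-291b-3p (2.26) lie below it. Since the assays differ in unknown efficiency, these numbers give no order among the members. These contrasts between assays were not tested. In CT-BM the other strand of its hairpin (miR-294*), the neighbouring member miR-293 and the near copies miR-291a-3p and miR-291b-3p gave no signal in any replicate. Marrow gave a clear signal for 1 assay of the cluster, not for the set, and the origin of that signal was not tested.

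**Figure D2:**
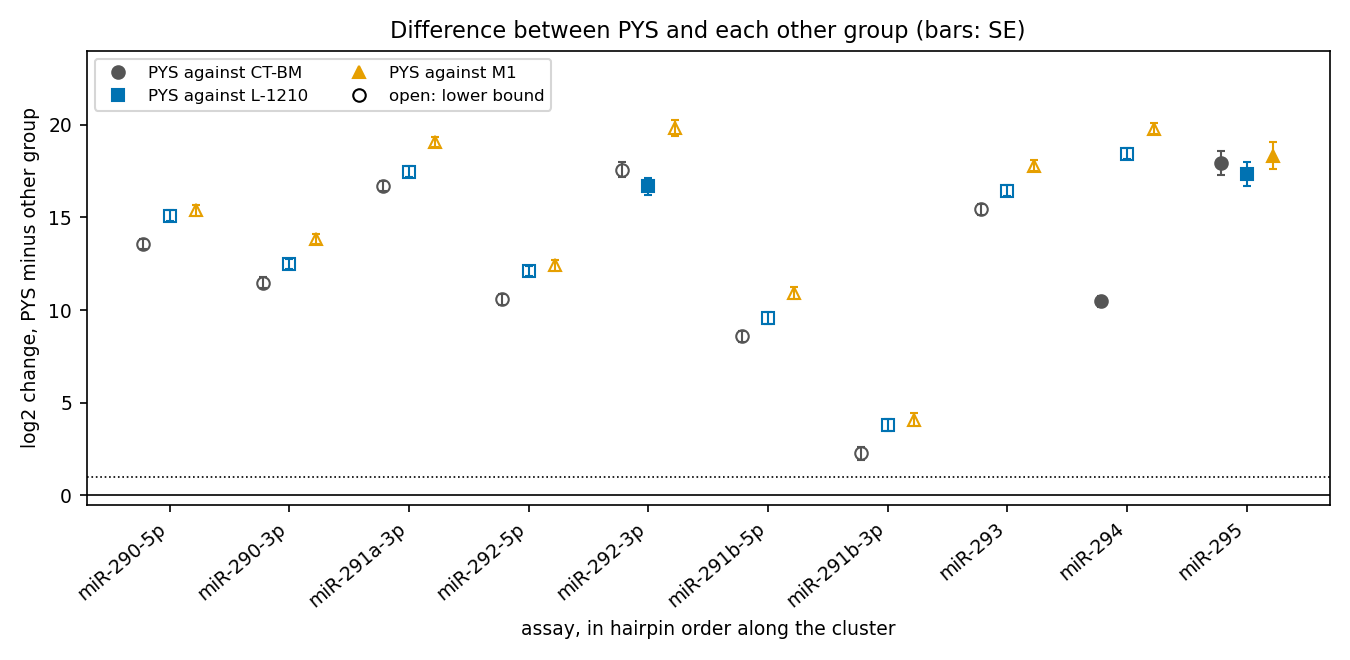
Log2 difference in the negative delta Ct between PYS and CT-BM, L-1210 or M1 for the 10 tested members, with SE bars; open symbols are lower bounds set by the Ct limit and the dotted line marks a 2-fold change. All 30 values lie above the line, from 2.26 for miR-291b-3p against CT-BM to 19.84 for miR-292-3p against M1, and the measured miR-294 value against CT-BM lies at 10.47.

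Against the leukaemia lines the same 10 members could be tested. In PYS against L-1210 all 10 tested members were called higher, beside 45.9% of 351 assays higher and 27.6% lower (73.5% in all). In PYS against M1 all 10 were called higher, beside 46% of 341 assays higher and 27.3% lower (73.3% in all). Here too most members entered the test only through PYS, 8 of the 10 against L-1210 and 9 of the 10 against M1, so these counts are descriptions. The 3 comparisons share the PYS replicates and are not independent. miR-294 was at least 356744-fold higher than in L-1210 and at least 911593-fold higher than in M1, and miR-291a-3p at least 181015-fold (n = 2 in L-1210) and 546409-fold. miR-293 was at least 89202-fold above L-1210 and 227938-fold above M1, and miR-290-5p at least 34986-fold and 42968-fold. For the weakest member, miR-291b-3p, the bounds were 13.8-fold and 17.0-fold.

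miR-292-3p and miR-295 had late signals in the leukaemia lines. For miR-292-3p, L-1210 gave Ct 34.0 and 31.8 in replicates 1 and 3, with the well of replicate 2 absent, while CT-BM gave no signal and neither did the 2 M1 replicates with a well. PYS was 105195-fold above L-1210 (log2 16.68 ± 0.44, adjusted p = 1.33e-11). For miR-295, L-1210 gave 31.7, 34.97 and 32.1, and M1 gave 33.1 and 32.3 with the well of replicate 2 absent. Those values lie in the last few cycles before the limit, more than 15 cycles after PYS, and PYS was 164495-fold above L-1210 (log2 17.33 ± 0.64) and 331947-fold above M1 (18.34 ± 0.72).

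Without PYS the cluster separated the groups in few places. In L-1210 against CT-BM, 3 members could be tested and 1, miR-294, was called lower, beside 45.6% of 333 assays called lower and 22.5% higher (68.2% in all). It was at least 251-fold lower (log2 -7.97 ± 0.30, adjusted p = 5.92e-11). miR-295 differed by 0.59 ± 0.65 (adjusted p = 0.428), which did not pass. miR-292-3p, with no detected CT-BM replicate, has only a bound: it was at least 0.89 ± 0.45 higher in L-1210 on the log2 scale (adjusted p = 0.0929, not called), and with a Ct limit of 40 the bound was 5.89 and was called (adjusted p = 7.65e-07). In M1 against CT-BM, miR-294 was called lower among 2 members tested, beside 44.3% of 325 assays lower and 25.2% higher (69.5% in all). It was at least 642-fold lower (log2 -9.33 ± 0.30, adjusted p = 9.47e-12). In L-1210 and in M1 against CT-BM, miR-294 entered the test only through its detection in CT-BM. Both calls are therefore descriptions and no support. miR-295 differed by -0.42 ± 0.73 (adjusted p = 0.616).

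Between the leukaemia lines 2 members could be tested, where 25.2% of 306 assays were called higher in L-1210 and 30.7% lower (55.9% in all). miR-292-3p was called at least 8.89-fold higher in L-1210 (log2 3.15 ± 0.49, n = 2 and 2, adjusted p = 0.000212). It entered the test only through L-1210, so the call is a description. This call rests on the 2 L-1210 wells at 34.0 and 31.8: without L-1210 replicate 1 or without replicate 3, the assay could no longer be tested and 0 members were called. miR-295 was 1.01 ± 0.73 higher in L-1210 on the log2 scale (adjusted p = 0.245). Without L-1210 replicate 2, whose Ct of 34.97 sits at the limit, that difference was 1.80 (adjusted p = 0.017), and against CT-BM it was 1.38 (adjusted p = 0.0337). The order of levels for miR-295 was PYS first, with L-1210, CT-BM and M1 not separable beyond their spread; for miR-294 it was PYS, then CT-BM, then L-1210 and M1 below the limit with no order.

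The scaling matters for these small differences and not for the direction of those of PYS. The plot of selected members under each scaling shows the spread. With MammU6 alone, miR-295 was called higher in L-1210 than in CT-BM (2.33 on the log2 scale), and with snoRNA202 alone it was below CT-BM (-1.04, not called). For miR-292-3p the lower bound was 2.53 with MammU6 alone, which was called, and -0.57 with snoRNA202 alone, a bound that gives no direction. Quantile normalization called miR-295 higher in M1 than in CT-BM (5.08) and lower in L-1210 than in M1 (-2.17). miR-294 in PYS against CT-BM ran from 9.55 with snoRNA135 alone to 13.44 with quantile normalization. miR-291b-3p kept its direction under every scaling and fell short of 2-fold under quantile normalization, at 0.78 against each of the 3 groups.

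**Figure D3:**
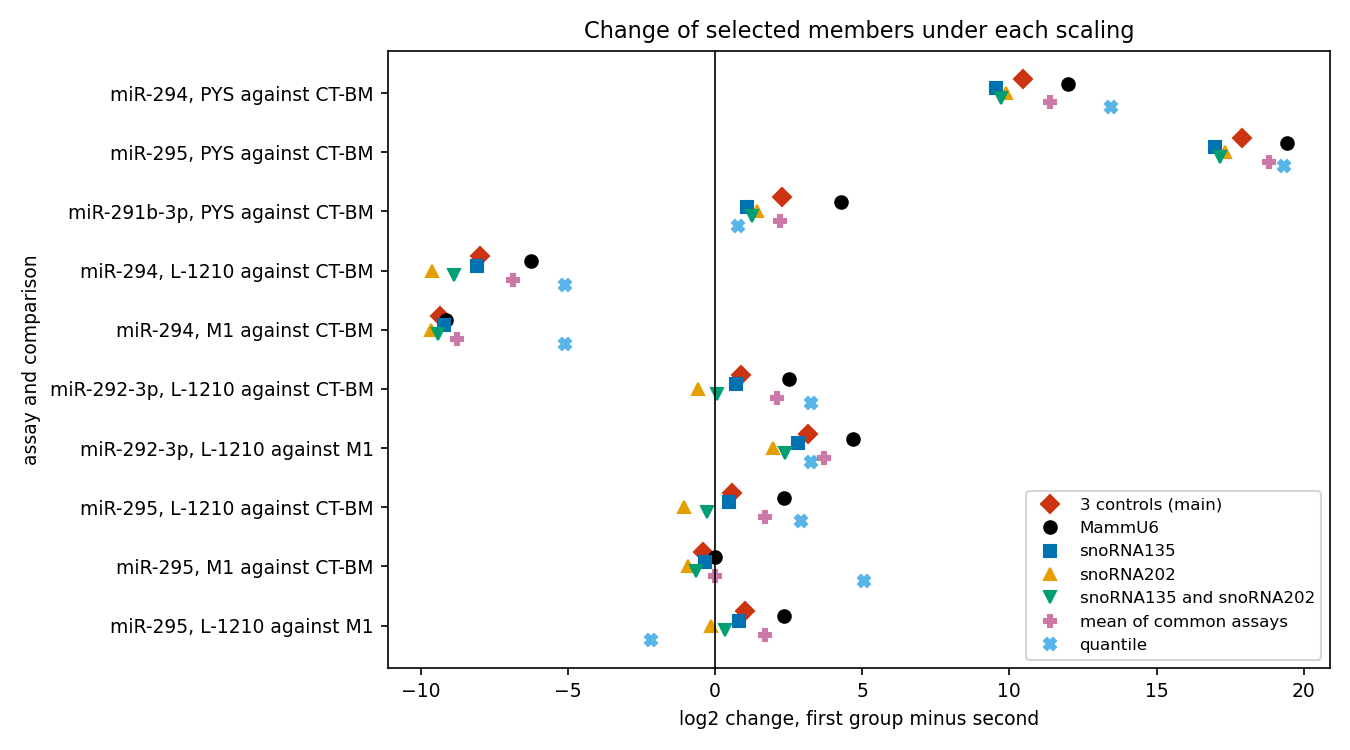
Log2 difference (first group minus second) of miR-294, miR-295, miR-292-3p and miR-291b-3p in selected comparisons under the 3 controls, each control alone, the 2 snoRNAs, the mean of the assays that all 12 replicates detected, and quantile normalization. The PYS and miR-294 values stay on 1 side of 0, while miR-295 between L-1210, M1 and CT-BM lies on both sides.

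The split of calls over all assays also moved with the scaling. For PYS against CT-BM it was 144 higher and 140 lower with the 3 controls, 205 and 104 with MammU6 alone, 104 and 171 with snoRNA135 alone, and 113 and 170 with the 2 snoRNAs. For PYS against L-1210 it was 161 and 97, against 121 and 117 with snoRNA135, 218 and 73 with snoRNA202, and 118 and 132 with quantile normalization. For PYS against M1 it was 157 and 93, against 209 and 65 with MammU6, 127 and 134 with snoRNA135, and 115 and 136 with quantile normalization. Among the comparisons without PYS, L-1210 against CT-BM moved from 75 and 152 to 163 and 92 with MammU6, 122 and 108 with the mean of the commonly detected assays (common mean), 140 and 109 with quantile normalization, 49 and 205 with the 2 snoRNAs, and 42 and 240 with snoRNA202. M1 against CT-BM moved from 82 and 144 to 136 and 109 with quantile normalization and 53 and 163 with snoRNA202. L-1210 against M1 moved from 77 and 94 to 153 and 43 with MammU6, 107 and 62 with the common mean, 64 and 136 with the 2 snoRNAs, and 61 and 180 with snoRNA202. Against shifts of the median assay of at most 1.87 on the log2 scale in either direction, the PYS differences of the members other than miR-291b-3p were 8.58 or more.

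Relatives of the cluster were measured on card A. All 5 tested assays of miR-302 and miR-367, the other cluster known from pluripotent cells, were called higher in PYS than in CT-BM. Of all 362 assays tested, 39.8% were called higher. For 4 of the 5 the difference is a bound, and these 4 entered the test only through their detection in PYS. Their count is therefore a description and no support. miR-302b and miR-302d, with the seed AAGUGCU of miR-294 and miR-295, were at least 39476-fold and 12466-fold higher. miR-367, which lies in the same transcript with a different seed, had the largest bound, 49916-fold, at Ct 18.6, 18.0 and 18.8 in PYS. The list's median log2 difference was 13.61, beside 0.08 over the 362 assays tested. Late signals outside PYS occurred here too, such as miR-302a in CT-BM at 34.3 and 33.2 with replicate 1 absent.

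The miR-17 family, with the shifted core, was detected in all 4 groups. In PYS against CT-BM 2 of 6 assays were called higher and 4 were not called, beside 39.8% of all assays tested called higher. The family's median log2 difference was 0.83. miR-20a had the largest difference, 4.90-fold (log2 2.29 ± 0.27, adjusted p = 3.45e-06), and miR-20b was 2.06-fold higher. miR-17 itself, at Ct 14.4, 13.6 and 14.1 in PYS, was 1.81-fold higher and below the 2-fold minimum. The family's count depends on the scaling, with 6 of 6 called higher by MammU6 alone and 1 by snoRNA135 alone, where the median was -0.09.

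let-7 miRNAs, known to be low in embryonic stem cells, went the other way in part. Of 9 assays, 7 could be tested in PYS against CT-BM and 5 were called lower, beside 38.7% of all assays tested. Their median log2 difference was -3.97. Neither let-7a nor miR-98 could be tested there, since both gave no signal in PYS or in CT-BM. In the leukaemia lines let-7a gave Ct 21.0 to 23.8, with 2 wells present in each line. let-7f was at least 8373-fold lower and let-7i 67.8-fold lower, while let-7b (1.45-fold lower, adjusted p = 0.482) and let-7c (1.36-fold lower, adjusted p = 0.375) did not pass. Against L-1210 and against M1, 8 of 8 tested let-7 assays were called lower in PYS, beside 27.6% and 27.3% of all assays tested. The count was 6 of 8 against L-1210 with snoRNA202 alone and against M1 with MammU6 alone. let-7a and let-7f gave no signal in PYS and entered the tests against the leukaemia lines only through those lines. Likewise let-7f entered against CT-BM only through CT-BM, so these calls are descriptions. In every scaling tried, 5 or 6 of the 7 were called lower than in CT-BM and 0 higher.

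Marker miRNAs of the cell types involved were set beside these values. All 6 blood markers were called lower in PYS than in CT-BM, beside 38.7% of all assays tested. The largest difference was that of granulocyte miR-223, at 458623-fold lower. In every PYS replicate miR-150 still gave Ct 24.5 to 25.4 and miR-451 gave 26.7 to 28.0. There miR-223 and miR-142-3p gave Ct 31.0 to 32.9, and miR-142-5p and miR-486 gave no signal. Wherever miR-142-5p and miR-486 were tested against PYS, they entered only through the other group, so their calls are descriptions. Of all assays tested, 27.6% were called lower in PYS than in L-1210 and 45.9% higher, and against M1 27.3% and 46%. Against the leukaemia lines the blood markers were split. Against L-1210, 3 of 5 tested were called lower in PYS and 2 higher, miR-150 by 2.56-fold (not called with snoRNA135 alone or quantile normalization) and erythroid miR-451 by at least 199-fold. Against M1, 4 of 5 were called lower and miR-451 was 474-fold higher, with 1 of 2 M1 replicates detected. Against both lines miR-451 entered the test only through PYS. Of 5 epithelial miRNAs of the miR-200 and miR-141 families, 1 (miR-200a, 2.60-fold) was called higher in PYS than in CT-BM. Another 2 were called lower than in CT-BM and 2 were not called. Their median against CT-BM moved from -1.37 with snoRNA135 alone to 1.06 with MammU6 alone. Against L-1210 and against M1, 0 were called higher, 2 lower and 3 were not called. These counts moved with the scaling. With MammU6 alone 3 were called higher and 1 lower than in M1. With snoRNA202 alone 2 were called higher and 1 lower than in L-1210. miR-141 was at least 174-fold lower than in CT-BM, with no signal in the 2 PYS wells present. In each comparison with PYS it entered only through the other group. Against CT-BM these markers therefore did not move one way in this epithelial-like line. Their part in the values of the cluster was not tested.

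**Figure D4:**
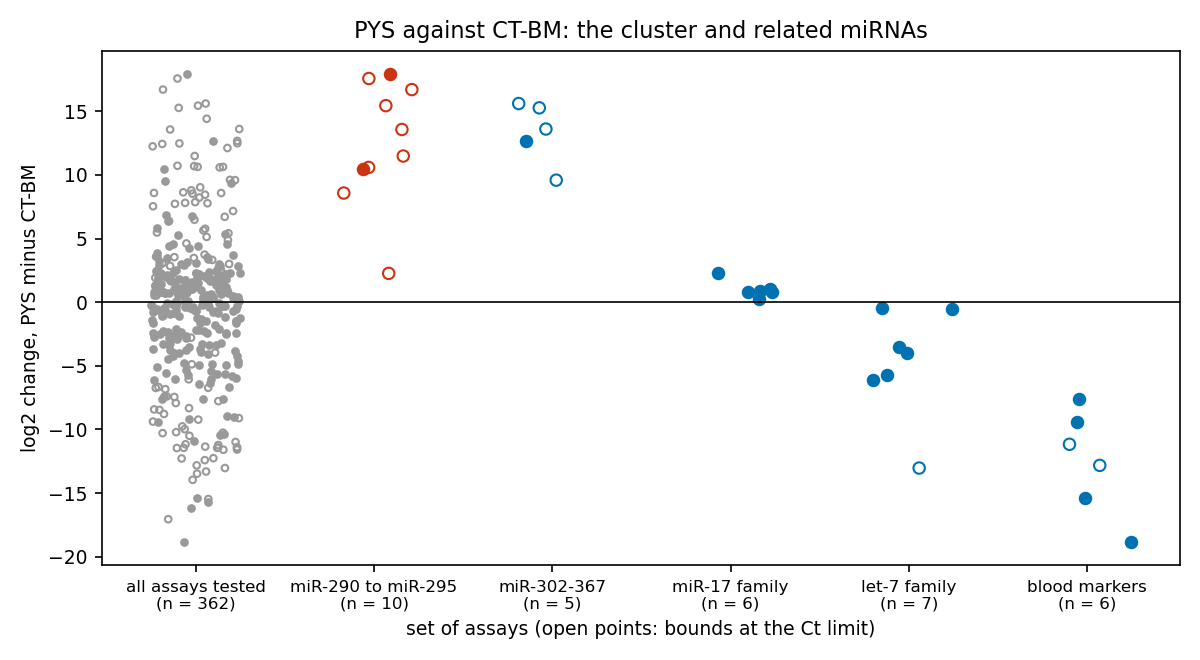
Log2 difference in the negative delta Ct between PYS and CT-BM for all 362 assays tested, the 10 members, and lists of related or marker miRNAs; each point is 1 assay and open points are bounds at the Ct limit. The members lie from 2.26 to 17.92 and the assays of miR-302 and miR-367 from 9.59 to 15.61, while the miR-17 family lies from 0.23 to 2.29 and the blood markers lie below 0.

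The assays whose pattern was most like the mean profile of the 10 detected members were found by Pearson correlation over up to 12 replicates among the other assays detected in every PYS replicate. They were miR-151-3p (r = 0.999), miR-298 (r = 0.999, over 11 replicates), miR-302d (r = 0.9988), miR-183 (r = 0.9987) and miR-296-3p (r = 0.9987). All 5 were detected in 3 of 3 PYS replicates and in no replicate of the other groups. The correlations describe the step between PYS and the rest and share the control RNAs of each card, so they say nothing about variation within a group.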

How the data were processed

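Per the labels' protocols, the authors isolated RNA with the mirVana kit, made and preamplified cDNA, and measured it on TaqMan cards A and B in a 7900HT instrument. The deposited table holds the Ct of each well and the mean Ct of an assay's wells on a card, in PCR cycles and not normalized, per the file headers. It held 8969 wells from 24 card runs, of which 4334 gave no Ct. The software and Ct threshold are not given in the sources used here. A replicate's 2 cards are separate GEO samples with 1 title, and the runs carry that name.

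Repeat wells were averaged, and wells without a Ct or with a Ct over 35 (15 wells) were set to 35. Delta Ct used the mean of the 3 controls that the design text names. Group differences came from limma 3.58.1 (R 4.3.3), with 1 mean for each of the 4 groups over all 12 replicates, moderated by eBayes, and Benjamini-Hochberg adjustment over all assays tested in a comparison; absent wells were left out, not imputed. An assay was tested if every present replicate, at least 2, of 1 of the groups was detected. Calls needed a 2-fold or larger change with an adjusted p below 0.05. The number of replicates limits the precision, and no read depth applies. The procedure was tested on simulated data, and no outcome of that is given or relied on here. How it handles bounds at the Ct limit was not tested.

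Named were all members, assays of the opposite strands of their hairpins, the 5 most similar other assays among those detected in every PYS replicate, and the largest changes in each direction of lists of related and marker miRNAs; further list members are named as examples after their values were seen. The members and lists were chosen with earlier results of these data known. Alternatives were other controls and scalings, Ct limits of 32 and 40, other detection filters, robust eBayes, no fold minimum, a fit to the compared groups alone, the replicate number as a block, and leaving out each replicate. Sequences and positions are from RefSeq's tables for GRCm38.p6, handled in Python 3.11.15 (pandas 2.3.3, numpy 2.4.6, matplotlib 3.10.9 for figures).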

Additional observations from a re-analysis of the deposited data

How the results depend on the processing

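The 30 member values of PYS against the other groups had 567 alternative values, of which 564 kept their direction and call, and the other 3 are miR-291b-3p under quantile normalization (0.78, below 2-fold). A Ct limit of 32 left miR-291b-3p untested, and a filter for detection in all 12 replicates left no member and 124, 120, 115, 98, 103 and 87 called assays in the 6 comparisons (PYS against CT-BM, L-1210 and M1, then L-1210 and M1 against CT-BM, then L-1210 against M1). Bounds move with the limit by construction: between Ct limits of 40 and 32, miR-294 ran from -12.97 to -4.97 in L-1210 against CT-BM and from -14.33 to -6.33 in M1 against CT-BM. With quantile normalization both were -5.08, and all were called. Members called higher in L-1210 against CT-BM numbered 2 with MammU6 alone, the common mean or quantile normalization and 1 with a Ct limit of 40, and 0 to 1 when replicates were left out. In L-1210 against M1 they numbered 2 with MammU6 alone and 0 to 2 when replicates were left out, and quantile normalization called 1 lower. In M1 against CT-BM quantile normalization called 1 higher. Without the detection filter, undetected assays sit at limits that differ between groups, and 1 member was called lower in PYS against CT-BM, 8 in L-1210 and 10 in M1 against CT-BM, and 6 higher in L-1210 against M1. Of all 584 assays, 234 were then called lower in PYS, 397 in L-1210 and 405 in M1 against CT-BM. In L-1210 against M1, 254 of the 584 were called higher. All assays called in either direction were then 379 in PYS against CT-BM (284 with the filter) and 401 in PYS against M1 (250). They were 473 in L-1210 against CT-BM (227), 487 in M1 against CT-BM (226) and 349 in L-1210 against M1 (171).

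Values of late signals changed sign, and the cause was not tested. In L-1210 against CT-BM, the lower bound of miR-292-3p was -0.57 with snoRNA202, which shows no reversed direction, and miR-295 was -1.04 with snoRNA202, -0.28 with the 2 snoRNAs and -0.0086 to 1.38 when replicates were left out (lowest without L-1210 replicate 1). In L-1210 against M1, miR-295 was -0.13 with snoRNA202 and -2.17 with quantile normalization. In M1 against CT-BM, miR-295 was 0.0012 with the common mean, 5.08 with quantile normalization, 0.45 with a Ct limit of 40 and -0.81 to 0.18 when replicates were left out (0.18 without CT-BM replicate 2).

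Same-numbered replicates did not pair, with correlations of their deviations from -0.453 to 0.334 over 187 assays. With replicate number as a block, the members called stayed at 10 in each PYS comparison and no member call changed; miR-294 was 10.47 in PYS against CT-BM (adjusted p = 1.44e-10). Called assays were 283, 256, 250, 229, 225 and 173 in the 6 comparisons.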
